A study of Arabidopsis thaliana and Zea mays with 12 samples.

Results

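The type-A response regulators of Arabidopsis are the 10 genes ARR3 to ARR9, ARR15, ARR16 and ARR17. They were taken by their locus identifiers from the deposited table of wild-type expression, which held all 10 of them among its 27411 genes. The series has 12 samples, which the study used to map the DNA base modification N4-acetyldeoxycytosine and to set it beside gene expression. Only 2 of them, the RNA-seq replicates of untreated wild-type Col-0, have values here, and the 10 others were not analysed here. The labels give the tissue as leaves of 3-week-old plants of the strain Col-0 and the molecule as polyA RNA, while the methods speak of plants and of removing ribosomal RNA with an mRNA kit. Both replicates are of 1 untreated genotype, so the levels below describe untreated tissue, labelled as leaves, and hold no response to added cytokinin. The methods call them biological replicates, and neither source says how many plants each pools.

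Cytokinin is an adenine-derived plant hormone that promotes cell division in shoots, greening and leaf longevity. It is sensed by membrane histidine kinases, the AHK receptors, which pass a phosphate through histidine phosphotransfer proteins (AHPs) to aspartates in the receiver domains of response regulators. Type-B regulators carry a DNA-binding domain after the receiver and switch on target genes, among them the type-A genes, whose products lack that domain and damp the signal. Type-A transcripts are therefore widely used as a readout of cytokinin signalling.

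The 10 genes fell into 5 pairs by protein sequence, and in every case the closest relative of a member within the family was the other gene of the pair known from textbook phylogenies. The share of identical residues over the aligned RefSeq proteins was 86.6% for ARR16 and ARR17, 81.4% for ARR5 and ARR6, 79.1% for ARR4 and ARR3, 74.4% for ARR9 and ARR8 and 72.3% for ARR15 and ARR7. All 10 have 5 coding exons in the RefSeq annotation of TAIR10.1. Their proteins run from 153 residues in ARR17 to 259 in ARR4. ARR5 and ARR6 also shared a long intron: the longest intron was 750 bases in ARR5 and 603 in ARR6, against at most 233 bases in the other 8 genes. Other pairs differed in structure, with a sixth exon, untranslated, in ARR8 and not in ARR9, and an annotated mRNA of 2073 bases for ARR16 against 507 bases for ARR17.

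**Figure D1:**
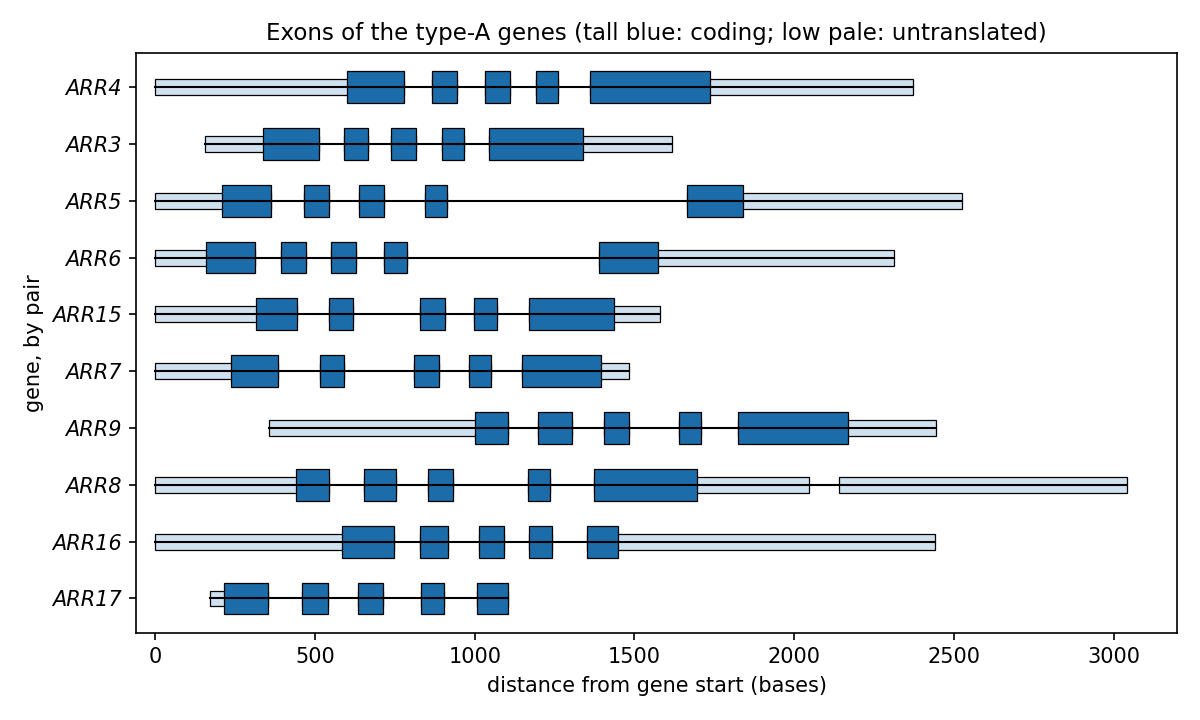
Exon maps of the 10 type-A genes, drawn from the RefSeq reference transcript of each gene (TAIR10.1). The x axis is the distance in bases from the annotated gene start, along the direction of transcription. Tall blue boxes are coding exons, low pale boxes untranslated exon parts and lines introns. Each gene has 5 coding exons, and ARR5 and ARR6 have the long intron before the last coding exon.

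The part that makes these proteins response regulators is the receiver aspartate that accepts the phosphate. The coding sequence around it is shown because it is what the 10 genes share, and because it shows how alike their bases are there. Each line gives 33 bases of the coding strand, 5′ to 3′, read from TAIR10.1, with the aspartate codon in capitals and the number of that residue in the protein.
ARR4 (chr1:3443285-3443317, minus strand, aspartate 95): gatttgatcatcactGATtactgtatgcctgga
ARR3 (chr1:22066450-22066482, minus strand, aspartate 94): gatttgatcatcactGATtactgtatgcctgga
ARR5 (chr3:17760268-17760300, minus strand, aspartate 87): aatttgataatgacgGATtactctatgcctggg
ARR6 (chr5:25253724-25253756, minus strand, aspartate 86): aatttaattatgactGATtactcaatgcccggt
ARR15 (chr1:28132153-28132185, minus strand, aspartate 79): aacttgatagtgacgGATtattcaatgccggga
ARR7 (chr1:6578460-6578492, minus strand, aspartate 85): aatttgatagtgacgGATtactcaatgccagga
ARR9 (chr3:21110477-21110509, plus strand, aspartate 80): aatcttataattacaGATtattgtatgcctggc
ARR8 (chr2:17222707-17222739, plus strand, aspartate 78): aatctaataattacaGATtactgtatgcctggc
ARR16 (chr2:16970697-16970729, plus strand, aspartate 93): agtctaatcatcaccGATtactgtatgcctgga
ARR17 (chr3:20905910-20905942, plus strand, aspartate 82): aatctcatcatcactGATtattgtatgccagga

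The codon was GAT in all 10 genes, and 19 of the 33 positions were the same in every gene. ARR4 and ARR3 did not differ at any of the 33 positions, while ARR9 and ARR8 differed at 2, ARR15 and ARR7 at 3, ARR16 and ARR17 at 5 and ARR5 and ARR6 at 6. The longest run of identical bases between the annotated transcripts of ARR4 and ARR3 was 41 bases. For ARR5, ARR6, ARR7, ARR15, ARR16 and ARR17 the longest run shared with any other gene that does not overlap them was between 19 and 27 bases. ARR9 shared 41 bases with ARR8, and the longest run found for any member was the 83 bases that ARR8 shared with AT3G45800, a gene outside the family. All these runs are shorter than the 150-base reads of these libraries. Only exact runs were searched, so reads aligned to another gene with mismatches were not tested.

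The promoters were searched for the motifs AGATT and AGATC, core sequences that type-B regulators are known to bind, and for the longer form AAGATNTT, on both strands, from 250 bases before to 50 bases after the annotated start. AGATCT is its own reverse complement and counts once on each strand, and AAGATNTT overlaps AGATT and AGATC where its N allows. AGATT was found in 9 of the 10 promoters (69.7% of all 27443 protein-coding promoters of that length hold it), AGATC in 5 (32.0%) and AAGATNTT in 5 (13.9%). The number of AGATT and AGATC matches ranged from 1 in ARR3 to 9 in ARR7, with 7 in ARR16, 4 in ARR6, 3 in ARR8 and 2 in each of the others. The 250 bases before the start are printed for the 3 pairs that hold the gene with the highest level (ARR4) or the promoters with the most matches (ARR7 and ARR16), with AGATT and AGATC matches of either strand in capitals.
ARR4 (chr1:3444361-3444610, minus strand): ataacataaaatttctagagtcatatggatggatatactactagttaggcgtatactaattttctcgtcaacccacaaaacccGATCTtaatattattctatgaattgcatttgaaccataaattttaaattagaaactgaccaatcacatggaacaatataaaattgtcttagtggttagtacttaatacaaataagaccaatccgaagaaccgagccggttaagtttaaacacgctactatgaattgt
ARR3 (chr1:22067234-22067483, minus strand): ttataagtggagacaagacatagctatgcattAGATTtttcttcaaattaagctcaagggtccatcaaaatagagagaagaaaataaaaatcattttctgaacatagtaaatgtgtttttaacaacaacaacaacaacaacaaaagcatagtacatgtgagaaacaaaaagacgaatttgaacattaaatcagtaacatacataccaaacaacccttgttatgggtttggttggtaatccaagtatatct
ARR15 (chr1:28133026-28133275, minus strand): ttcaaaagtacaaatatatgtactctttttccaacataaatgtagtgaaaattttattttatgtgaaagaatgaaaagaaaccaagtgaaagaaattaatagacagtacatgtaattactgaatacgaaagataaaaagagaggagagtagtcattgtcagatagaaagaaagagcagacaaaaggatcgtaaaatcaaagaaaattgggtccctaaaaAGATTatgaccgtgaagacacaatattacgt
ARR7 (chr1:6579315-6579564, minus strand): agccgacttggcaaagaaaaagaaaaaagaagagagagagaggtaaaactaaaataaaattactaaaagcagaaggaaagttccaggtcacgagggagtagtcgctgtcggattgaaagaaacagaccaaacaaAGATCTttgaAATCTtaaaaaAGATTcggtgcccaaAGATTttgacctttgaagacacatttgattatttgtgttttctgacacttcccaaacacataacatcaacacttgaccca
ARR16 (chr2:16969423-16969672, plus strand): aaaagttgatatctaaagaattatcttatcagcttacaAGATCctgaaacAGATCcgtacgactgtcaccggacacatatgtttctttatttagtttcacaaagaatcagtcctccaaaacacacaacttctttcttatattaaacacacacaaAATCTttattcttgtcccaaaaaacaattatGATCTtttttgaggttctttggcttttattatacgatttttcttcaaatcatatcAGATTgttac
ARR17 (chr3:20905014-20905263, plus strand): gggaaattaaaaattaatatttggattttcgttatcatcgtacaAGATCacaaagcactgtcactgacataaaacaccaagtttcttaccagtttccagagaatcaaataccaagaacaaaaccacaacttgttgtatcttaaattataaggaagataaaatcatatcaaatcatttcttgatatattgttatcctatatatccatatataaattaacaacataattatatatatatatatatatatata

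Within these stretches ARR7 and ARR16 held 5 matches each, and ARR4, ARR3, ARR15 and ARR17 held 1 each. The other 4 matches of ARR7 and 2 of ARR16 lay at or after the annotated start. Over the whole window searched, ARR4 had 2 matches and ARR3 had 1. A relation between the number of matches and the level of a gene was not tested. A match is a stretch of letters, not a bound site.

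Expression was given as FPKM, that is, as fragment counts scaled to exon length and library size, which allows genes of 1 library to be set side by side. All 10 members had a value above 0 (82.2% of all genes did), and 8 of 10 had a mean above 1 FPKM (47.7% of all genes). The median of the members was 27.4 FPKM, against 0.823 FPKM over all genes. When genes were ranked by mean FPKM and split into 4 equal groups as the study did, 7 members were in the top 25% (25% of all genes by construction), ARR8 was between 25 and 50%, and ARR17 and ARR3 were between 50 and 75%. In RNA of whole tissue, fewer cells expressing a gene and less RNA per cell cannot be told apart.

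ARR4 (AT1G10470) dominated the family. It encodes a type-A regulator known to bind the photoreceptor phytochrome B and to stabilise its active form. It had 633 and 519 FPKM in replicates 1 and 2, a mean of 576 ± 80.4 (SD, n = 2), and ranked at position 212 among all genes. It made up 75.3% and 75.6% of the summed FPKM of the 10 members in the 2 replicates. Its lower replicate was far above the highest value of any other member, and its mean was 12.7-fold above that of ARR16, the next gene.

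Below ARR4, 6 genes lay within a narrow band, with replicate values between 16.7 and 53.1 FPKM. ARR16 (AT2G40670), which in leaves is known from the stomatal lineage, had 53.1 and 37.4 FPKM, a mean of 45.3 ± 11.1 (SD, n = 2). ARR15 (AT1G74890), known with ARR7 from the shoot meristem and the embryonic root, had 38.8 and 31.8 FPKM (35.3 ± 4.97). ARR5 (AT3G48100), whose promoter is a common cytokinin reporter, had 35.7 and 29.2 FPKM (32.5 ± 4.58). The replicate ranges of these 3 genes overlapped in turn, ARR16 with ARR15 and ARR15 with ARR5.

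ARR9 (AT3G57040), which acts redundantly with other type-A genes in limiting cytokinin responses, had 34.3 and 29.6 FPKM, a mean of 31.9 ± 3.28 (SD, n = 2). Its range overlapped that of ARR5, and the order of ARR5 and ARR9 differed between the replicates, so these neighbours could not be told apart. ARR7 (AT1G19050), a direct target of the meristem regulator WUSCHEL, had 24.7 and 21.1 FPKM (22.9 ± 2.54). ARR6 (AT5G62920), the partner of ARR5, had 19.1 and 16.7 FPKM (17.9 ± 1.69). The replicates of ARR9, ARR7 and ARR6 did not overlap with those of the next gene down.

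The last 3 genes were much lower. ARR8 (AT2G41310), the partner of ARR9, had 1.25 and 1.30 FPKM, a mean of 1.27 ± 0.0352 (SD, n = 2), which was 14.1-fold below ARR6. ARR17 (AT3G56380), whose relatives in poplar set the sex of flowers, had 0.139 and 0.144 FPKM, a mean of 0.142 ± 0.00284. ARR3 (AT1G59940), which with ARR4 affects the period of the circadian clock, had 0.123 and 0.126 FPKM, a mean of 0.124 ± 0.00250. ARR8 was thus above the median of all genes, and ARR17 and ARR3 were below it. The RefSeq annotation lists AT2G41310 under the symbol RR3, so values for this family are best matched by locus and not by name.

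**Figure D2:**
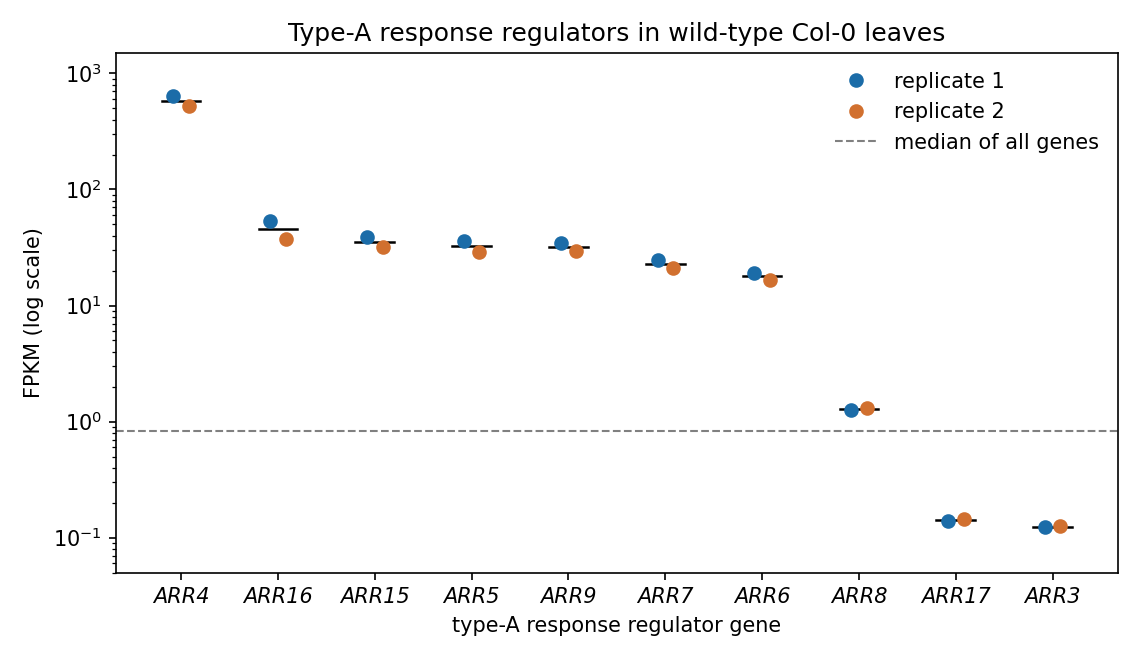
FPKM of the 10 type-A genes in wild-type Col-0 samples labelled as leaves, in order of their mean. The y axis is FPKM on a log scale, points are the replicates, short black lines the mean of the 2 replicates and the dashed line the median of all 27411 genes (0.823 FPKM). ARR4 stands alone at 519 to 633 FPKM, 6 genes lie between 16.7 and 53.1 FPKM, and ARR17 and ARR3 lie below the dashed line.

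Along this order, 6 of the 9 steps between neighbours separated genes whose replicate values did not overlap. With 2 values per gene no exact test can pass 0.05, so the steps are descriptions. A matching share over other genes was not computed. The step between ARR17 and ARR3 rested on few fragments. The most common ratio of replicate 1 to replicate 2 was 1.13, shared to 5 decimals by 555 of the 21309 genes above 0 in both, and the next most common, in 173 genes, was 0.5 of it. The values therefore step in whole fragments, and a single fragment counted for 1.13 times as much FPKM in replicate 1. If the scaling was by library size alone, replicate 1 was the shallower library. ARR3 and ARR17 both lay at the ratio of 6 to 7 fragments. The size of a step in single-exon genes and the RefSeq transcript lengths gave 13.2 and 15.3 fragments for ARR3 and 6.58 and 7.63 for ARR17. The nearest whole multiples of 6 and 7 were lower, at 12 and 14 fragments for ARR3 and 6 and 7 for ARR17.

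The exact Poisson 95% interval of the mean was taken from these whole numbers of fragments, for counting error only. It was 0.0753 to 0.242 FPKM for ARR17 and 0.0813 to 0.182 FPKM for ARR3. The intervals overlapped almost wholly, so the order of ARR17 and ARR3 was not detectable at this depth although their replicates did not overlap. The upper limits of both were below the lower replicate of ARR8.

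Within the pairs, closely related genes were set against each other as a ratio of FPKM in each replicate. ARR4 exceeded ARR3 by 5162-fold and 4116-fold in replicates 1 and 2, a mean log2 ratio of 12.17 ± 0.23 (SD, n = 2). ARR16 exceeded ARR17 by 381-fold and 261-fold (log2 ratio 8.30 ± 0.39), and ARR9 exceeded ARR8 by 27.4-fold and 22.8-fold (4.65 ± 0.19). In these 3 pairs the level of the pair came almost wholly from 1 gene. Given the few fragments of the lower gene, counting error alone allowed a ratio of mean levels between 3161 and 7091 for ARR4 over ARR3 and between 187 and 601 for ARR16 over ARR17.

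The other pairs were close to even. ARR5 exceeded ARR6 by 1.87-fold and 1.75-fold, a mean log2 ratio of 0.85 ± 0.07 (SD, n = 2), and ARR15 exceeded ARR7 by 1.57-fold and 1.51-fold (0.62 ± 0.04). The direction was the same in both replicates of all 5 pairs, and in none of them did the replicate values of the partners overlap. The pair with the highest protein identity, ARR16 and ARR17, was thus among the most uneven, and the pair with the lowest, ARR15 and ARR7, was the most even of the 5. With 5 pairs this is a description only.

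**Figure D3:**
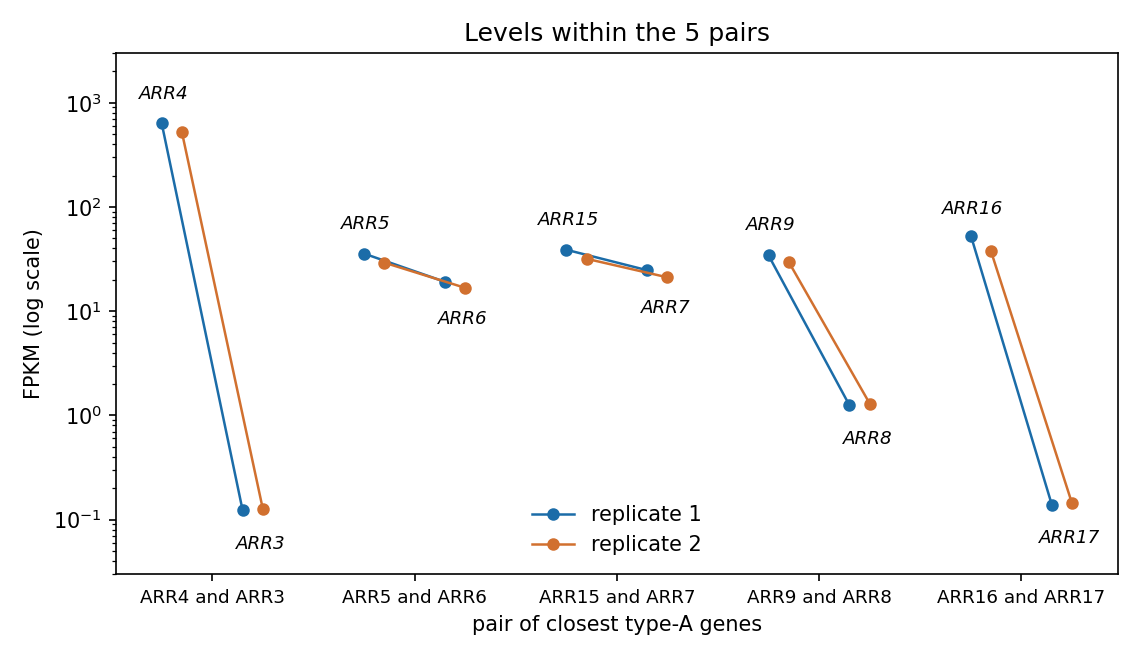
FPKM of both genes of each type-A pair. The y axis is FPKM on a log scale, and each line joins the 2 genes of a pair within 1 replicate. ARR4 against ARR3, ARR9 against ARR8 and ARR16 against ARR17 fall steeply, by 22.8-fold to 5162-fold, while ARR5 against ARR6 and ARR15 against ARR7 are within 1.51-fold to 1.87-fold.

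Genes that share a stretch of the genome limit a few of these values. ARR6 overlaps AT5G62910 on the opposite strand by 348 bases, and that gene had 2.68 and 2.27 FPKM, against 19.1 and 16.7 FPKM in ARR6. ARR8 and ARR9 each overlap a long non-coding RNA on the opposite strand, AT2G09250 by 299 bases and AT3G08825 by 231 bases, neither of which is in the table used here. No source used here says whether the counting used strand, so reads of the shared bases cannot be told apart. For ARR8, at 1.27 FPKM, a small number of such reads would weigh most.

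The 69 other genes of the cytokinin pathway were described by role. Of these, 57 had a mean above 0 and 32 a mean above 1 FPKM, near the shares of all genes (82.2% and 47.7%). Their median was 0.615 FPKM, against 0.823 FPKM over all genes. Of the type-A genes, 8 of 10 were above 1, with a median of 27.4 FPKM. None of the 69 exceeded ARR4, 1 exceeded ARR16, and 8 exceeded ARR6. Of all 27411 genes, 211 exceeded ARR4, 2049 exceeded ARR16 and 3892 exceeded ARR6. Among the lists of the pathway, the type-A genes had the highest median and the highest summed FPKM.

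At the start of the pathway, most genes of synthesis were below 1 FPKM, while LOG1 of the activation step was in the top 25%. The isopentenyltransferases (IPTs), which make the first cytokinin precursor, were above 1 FPKM in 2 of 9 genes. They were led by IPT9 (4.65 ± 0.0571 FPKM, SD, n = 2), which acts on transfer RNA, and IPT3 (3.47 ± 0.105), followed by IPT5 at 0.514 and IPT1 at 0.399 FPKM. IPT4, IPT6 and IPT8 were listed at 0 in both replicates. The CYP735A hydroxylases that make trans-zeatin were both below 1 FPKM, with 0.222 FPKM for CYP735A2 and 0.0102 FPKM for CYP735A1. Of the 9 LOG enzymes, which release the active base, LOG1 (24.9 ± 3.86 FPKM), LOG8 (6.02) and LOG7 (2.51) were above 1, LOG6 was at 0.615 FPKM and LOG9 was listed at 0.

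Transport and removal were represented by a few genes each. PUP14, a plasma membrane importer of cytokinin, had 29.4 ± 1.19 FPKM (SD, n = 2) and PUP1 had 16.9 ± 1.78, while the exporter ABCG14, which loads cytokinin into the xylem of roots, had 0.303 FPKM and PUP2 0.297 FPKM. Of the 7 cytokinin oxidases, which break the hormone down, CKX7 (12.1 ± 0.420), CKX4 (5.38) and CKX6 (3.09) were above 1 FPKM and CKX5 was at 0.273. The glycosyltransferases that store or inactivate cytokinin were all 3 above 1 FPKM, with UGT85A1 at 5.68, UGT76C2 at 1.69 and UGT76C1 at 1.30 FPKM. All of these genes were below ARR16.

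The signalling chain itself was uneven. The 3 receptors were all below 1 FPKM, with AHK3 at 0.691 and 0.854 FPKM, AHK2 at 0.457 and 0.427 and AHK4 at 0.459 and 0.419 in replicates 1 and 2. Of the phosphotransfer proteins, 3 of 6 were in the top 25% of genes, with AHP3 at 43.5 ± 8.09 FPKM, AHP2 at 38.7 ± 7.92 and AHP5 at 28.8 ± 2.94 (SD, n = 2). AHP1 had 4.98 ± 0.297 FPKM, and the other 2 were below 1 FPKM. AHP3 and AHP2 lay between the means of ARR16 and ARR15, and AHP5 between those of ARR9 and ARR7.

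Type-B regulators, the activators, were low. ARR1 led them at 2.77 ± 0.415 FPKM, followed by ARR14 at 2.54 ± 0.626, ARR12 at 1.06 ± 0.151 and ARR10 at 1.02 ± 0.00753 (SD, n = 2). The other 7 of 11 were below 1 FPKM, and 5 of those were listed at 0 in both replicates. Summed over each list, the type-A genes had 840 and 687 FPKM in replicates 1 and 2, against 8.17 and 8.06 FPKM for the type-B genes, which is 103-fold and 85.2-fold higher. ARR4 alone accounts for most of the type-A sum, and ARR8, ARR17 and ARR3 were below ARR1 and ARR14. Type-C regulators, which resemble type-A proteins but are not induced by cytokinin, were listed at 0 for both ARR22 and ARR24.

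Genes that act on or after the type-B regulators varied. KMD4, an F-box protein of the group that marks type-B regulators for breakdown, had 97.5 ± 1.56 FPKM (SD, n = 2) and was the gene of the 69 that exceeded ARR16. KMD1 had 30.3 ± 3.54, KMD2 had 1.92 and KMD3 was listed at 0. All 6 cytokinin response factors (CRFs) were above 1 FPKM, with CRF6 at 20.0 ± 0.603, CRF1 at 5.52, CRF4 at 5.32 and CRF3 at 5.13 FPKM. The 3 other genes listed as induced by cytokinin were outside the top 25%, and thus below the 7 type-A genes of that group by construction. ASL9 had 5.07, CYCD3-1 4.11 and GATA22 0.899 FPKM. ARR8 was below ASL9 and CYCD3-1, and ARR17 and ARR3 were below all 3.

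**Figure D4:**
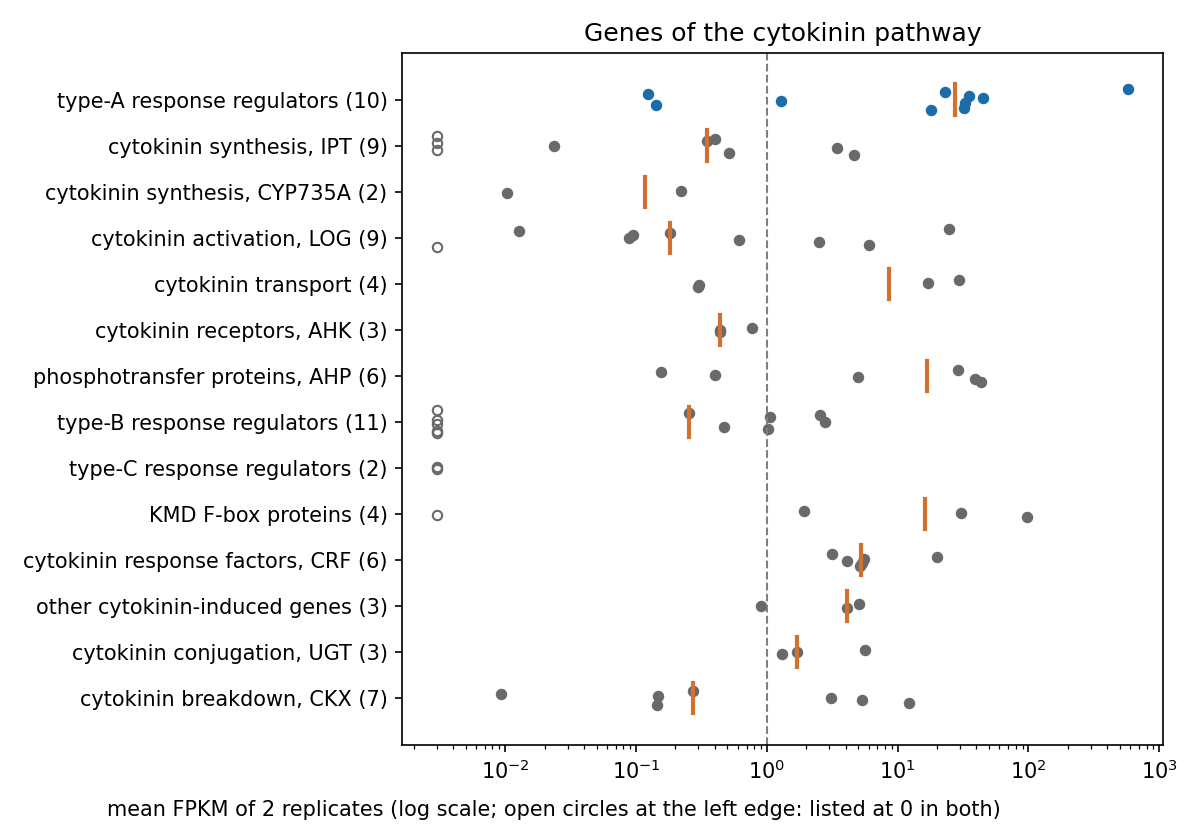
Mean FPKM of the type-A genes (blue) and of the other genes of the cytokinin pathway (grey), by role, with the number of genes in brackets. The x axis is the mean of the 2 replicates on a log scale, orange bars are list medians (none drawn for the type-C list, at 0), the dashed line is 1 FPKM, and open circles at the left edge are genes listed at 0 in both replicates. The type-A median is 27.4 FPKM, while the receptors lie between 0.439 and 0.772 FPKM and no type-B gene passes 2.77 FPKM.

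Other families of repressors or receiver-domain proteins put the spread of the type-A genes in context. The Aux/IAA proteins, repressors of auxin signalling that auxin itself induces, were above 1 FPKM in 21 of 29 genes with a median of 12.1 FPKM. They were led by IAA9 at 119 ± 8.75 FPKM, IAA8 at 105 ± 15.8, IAA7 at 64.9 ± 1.43 and IAA16 at 45.4 ± 4.08 (SD, n = 2). The JAZ repressors of jasmonate signalling were above 1 FPKM in 11 of 13 genes with a median of 5.17 FPKM, led by JAZ9 at 114 ± 9.49, JAZ6 at 35.9 ± 0.0853, JAZ12 at 35.0 ± 1.40 and JAZ1 at 9.00 ± 0.174. No gene of these families reached ARR4. The leading gene took 75.5% of the summed mean FPKM among the type-A genes, against 50.3% in the JAZ and 20.3% in the Aux/IAA family. Such a lead was not particular to the type-A genes, since the share was 75.1% among the KMD genes (KMD4) and 72.3% among the LOG genes (LOG1).

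The clock pseudo-response regulators carry a receiver-like domain without the phosphate-accepting aspartate. They had a median of 2.80 FPKM, with TOC1 at 3.73 ± 0.0101, PRR5 at 2.92 ± 0.0987, PRR7 at 2.80 ± 0.0347 and PRR9 at 1.27 ± 0.121 FPKM (SD, n = 2). None of the 5 pseudo-response regulators was in the top 25%, so the 7 type-A genes of that group were above them by construction. Of the other members, ARR8 (1.27 FPKM) was close to PRR9, and ARR17 (0.142) and ARR3 (0.124) were below all 5. The sources used here do not give the hour of sampling.

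The replicates were compared gene by gene. As log2((replicate 2 + 1)/(replicate 1 + 1)), none of the 10 was at least 1.5-fold apart (0.383% of all genes were), a share near that background. The SD was at least 0.2 of the mean only in ARR16 (45.3 ± 11.1 FPKM). The share over all genes was not computed, so this says nothing of the members as a group. The small SDs of ARR17 and ARR3 rest on few fragments. Of the 8 members with a mean above 1 FPKM, 7 were lower in replicate 2, as were 68.3% of all genes above that level. Their median log2 ratio was -0.25, against -0.07 for all genes above 1 FPKM. That set was not matched to the level of the members, and the added 1 compresses the ratios of its low genes. Other lists varied, with 25 of 29 Aux/IAA genes lower in replicate 2 (median -0.14) and 8 of 13 JAZ genes (median -0.01). A drop particular to the type-A genes was not tested.

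ARR16 differed most between the replicates, with a log2 ratio of -0.49, or 1.42-fold more FPKM in replicate 1. Of the 13074 genes above 1 FPKM, 223 (1.71%) had a lower ratio. ARR4 (-0.29), ARR15 (-0.28) and ARR5 (-0.28) followed, and ARR7 (-0.22), ARR9 (-0.20) and ARR6 (-0.18) moved less. ARR8 (0.03), ARR17 (0.01) and ARR3 (0.00) were nearly level, on a scale where the added 1 compresses the ratios of such low values. AHP2 (-0.41), AHP3 (-0.37) and AHP5 (-0.20) were lower in replicate 2 as well, while over all 32 pathway genes above 1 FPKM the median was -0.04 and 20 were lower.

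**Figure D5:**
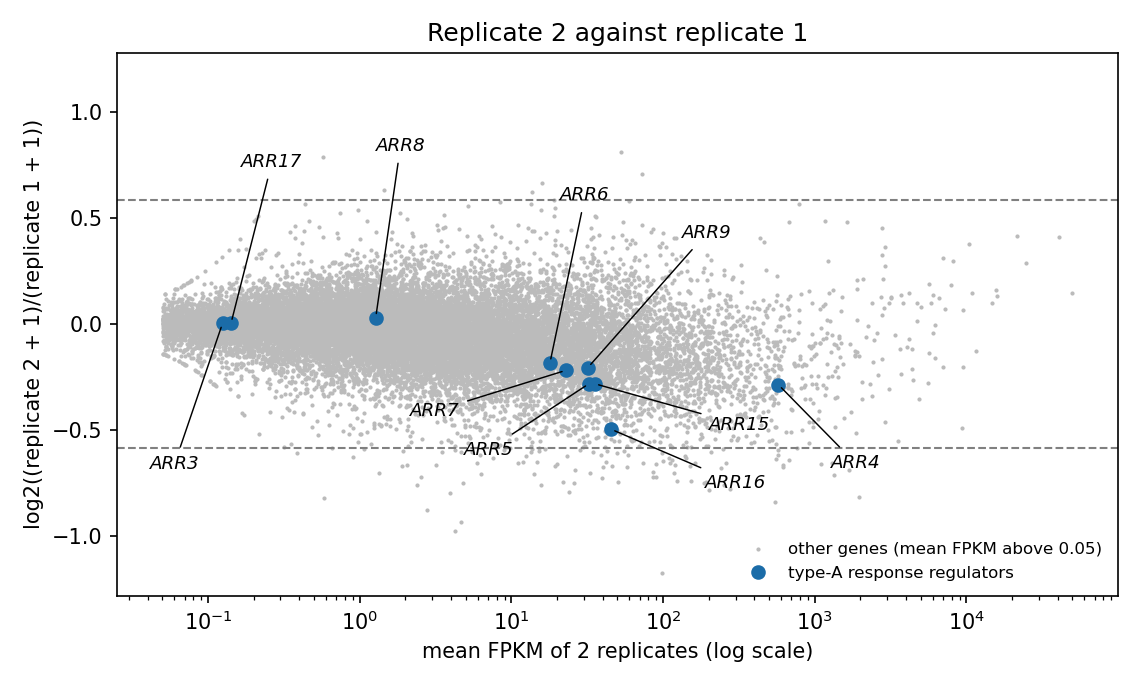
Difference between the replicates against the level of each gene. The x axis is the mean FPKM of the 2 replicates on a log scale, the y axis log2((replicate 2 + 1)/(replicate 1 + 1)), grey points are other genes with a mean above 0.05 FPKM, blue points the type-A genes, and dashed lines mark 1.5-fold. The 7 members of the top 25% lie below 0, between -0.18 for ARR6 and -0.49 for ARR16, and no member passes a dashed line.

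Marker genes were set beside the tissue label. High mesophyll markers would be found in leaves and in whole plants alike, so they cannot settle which of these was sampled. All 4 leaf mesophyll markers were abundant, led by the chlorophyll-binding protein CAB1 at 40786 and the Rubisco subunit RBCS1A at 24598 FPKM. All 6 flower markers and all 4 seed markers were below 1 FPKM. Of 5 root markers, PYK10 was above 1, at 7.50 FPKM, and EXPA7 and IRT1 were listed at 0.

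Some type-A genes are known from meristems and from the stomatal lineage, so markers of those cells are given beside them. Of 4 shoot meristem markers, STM was above 1, at 8.70 and 8.76 FPKM, of a summed level of 9.47 FPKM in replicate 1 and 9.47 FPKM in replicate 2. The stem cell regulator WUS had 0.00872 FPKM in replicate 1 and was listed at 0 in replicate 2. Stomatal lineage markers were above 1 FPKM in 5 of 6 genes, led by EPF2 at 16.6 and EPF1 at 15.0 FPKM, and vascular markers in 3 of 4, led by SUC2 at 18.4 and XCP1 at 7.40 FPKM. The part of these cell types in the type-A levels was not tested.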

How the data were processed

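The authors mapped paired reads of 150 bases to TAIR10 (TopHat v2.0.9), and Cufflinks v2.1.1 gave the FPKM values they deposited, while Bowtie2 is also in the submitters' processing notes. No source used here states which annotation release was used, whether counting was stranded or how reads matching several genes were treated. Members and gene lists were chosen with earlier results of these data known. Each gene was summarised by the mean and SD over both replicates, without a filter on low values. Ratios between replicates used a pseudocount of 1 FPKM, and ratios within pairs none. Fold changes with a pseudocount understate those of low genes. Tests across conditions were not made.

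FPKM files give no counts, so depth was only estimated, from the steps of low values. A fragment was worth about 0.0108 FPKM times kb in replicate 1 and 0.00953 in replicate 2 in single-exon genes. Named genes were all 10 members, up to 4 genes of each list (2 of a marker list) by mean FPKM, genes listed at 0 (by number where over 3), and genes overlapping a member. AT3G45800, AHP2, AHP3, AHP5 (in the replicate comparison) and WUS were named after their values were seen. Sequences, lengths and coordinates came from the RefSeq assembly and annotation TAIR10.1, in which all 10 members matched, and shared runs of at least 16 bases were searched in its transcripts. The ratio and identity steps were tested on simulated data. Alternatives were other pseudocounts and levels, TPM, a wider promoter window and each replicate left out. Python 3.11.15, numpy 2.4.6, pandas 2.3.3, scipy 1.17.1, biopython 1.88 and matplotlib 3.10.9 were used.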

Additional observations from a re-analysis of the deposited data

How the results depend on the processing

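Of 36 alternative values other than leaving out a replicate, 30 stayed within the spread set for them (1.5 times for counts) and 6 moved, with no change of direction. With 2 replicates, a mean without either of them lies within 1 SD by construction, so those values say nothing of stability. The 6 that moved follow from how they were built. Over the members above 1 FPKM only, the median was 32.2 FPKM in place of 27.4. A pseudocount of 1 lowered the log2 ratio to 9.00 for ARR4 over ARR3, 5.32 for ARR16 over ARR17 and 3.85 for ARR9 over ARR8. In the 1000 bases before the start, a window chosen after seeing the data, 8 members held AGATC (76.3% of all promoters did) and 8 held AAGATNTT (38.6%). The median log2 ratio of the members between replicates was -0.25 to -0.14 over its alternatives. With either replicate left out, 8 members were above 1 FPKM, and the median was between 25.2 and 29.5 FPKM. Replicate 1 alone kept all 10 genes in their order, and replicate 2 alone kept 8, with ARR5 and ARR9 exchanged. With 1 replicate left out, the pair ratios on the log2 scale were simply those of the other replicate. They were 12.01 and 12.33 for ARR4 over ARR3, and 0.59 and 0.65 for ARR15 over ARR7. No paired analysis was possible because the 2 RNA-seq samples belong to the same group. With 2 replicates and no fragment counts, levels below about 1 FPKM are the least certain, and differences under the spread of 2 libraries were not detectable.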
